A study of Mus musculus with 36 samples.

Results

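The 38 genes described here encode the subunits of mitochondrial complexes II, III, IV and V that are made from nuclear DNA. They were taken by name from a raw count table of mouse brain RNA: 4 genes of complex II, 9 of complex III, 11 of complex IV and 14 of complex V. The list used no measured value, but it was chosen with earlier results of these data known. They make up 38 of the 56980 gene rows of the table, and all 38 passed the filter on low counts that left 25601 genes for testing. The lowest count of any of them in any sample was 836.

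The animals were 36 mice aged 37 to 45 days that carried either an Ndufs4 knockout (KO in what follows) or the wild-type gene (WT). They were gavaged for 3 consecutive days with CP2, a small molecule known as an inhibitor of complex I, or with vehicle. Ndufs4 encodes a subunit of complex I, and its loss is used in mice as a model of Leigh syndrome. Titles carry a letter, F or M, and an L-number that no other sample shares. There were 5 samples in each of KO CP2 F, KO vehicle F, WT CP2 F, WT vehicle F, KO CP2 M and WT CP2 M, and 3 samples in each of KO vehicle M and WT vehicle M. No cell type was sorted and every sample carries the tissue label brain. The labels name no strain, no allele design and no litter, and nothing in them says how the samples relate beyond the group, so p-values measure only the spread between these samples.

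The respiratory chain passes electrons from complexes I and II through ubiquinone to complex III, cytochrome c and complex IV, and the proton gradient so built drives complex V, the ATP synthase. Complex II, succinate dehydrogenase, also belongs to the citric acid cycle and is encoded in the nucleus alone, whereas complexes III, IV and V each combine nuclear subunits with a few encoded in mitochondrial DNA. Neurons depend on oxidative phosphorylation, and the nuclear subunits are expressed in every brain cell type. In whole tissue, fewer cells of a type and less RNA per cell cannot be told apart.

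Depth ran from 46124548 to 88559920 gene counts in a sample. The targeted gene Ndufs4 was lower in KO but not absent: KO samples had 30.2 to 37.1 CPM in vehicle F, 31.3 to 37.4 in CP2 F, 27.4 to 29.5 in vehicle M and 29.6 to 39.1 in CP2 M, against 45.2 to 58.9, 45.9 to 62.8, 38.9 to 50.1 and 42.3 to 48.5 in the matching WT groups. Xist, the transcript of the inactive X chromosome, matched the letter in the titles except in sample L291 of KO CP2 M, at 47.3 CPM. With 697833 Xist counts over the 36 samples, that level lay well below the mean of the F samples. Markers of the tissue label were present in every sample, with summed oligodendrocyte markers at 6681 CPM or more and summed neuron markers at 3819.7 CPM or more. Choroid plexus markers ranged from 187 to 3373 CPM in sum and blood markers from 21.7 to 714 CPM. Reads that fell outside every annotated gene made up a share that ranged from 5.09% to 13.2%. It was 5.99% ± 0.740 (SD, n = 5) in WT vehicle F and 6.02% ± 0.714 in WT CP2 F (SD, n = 5). It was 9.24% ± 2.56 in KO vehicle F (SD, n = 5) and 7.54% ± 2.13 in KO CP2 F (SD, n = 5). In M it was 10.2% ± 1.22 in WT vehicle (SD, n = 3), 11.5% ± 1.64 in WT CP2 (SD, n = 5), 12.1% ± 0.885 in KO vehicle (SD, n = 3) and 7.33% ± 1.40 in KO CP2 (SD, n = 5). The values in KO CP2 M all lay below those in KO vehicle M. Sample L266 stood apart in KO CP2 M by 1 measure, with a mean chi-square per gene of 87.7 to 126 against each other sample, where the others differed among themselves by 20.01 to 43.8. By the Pearson r of log2 CPM it did not stand apart, at 0.9945 to 0.9959 with each other sample against 0.9932 to 0.9954 among the others. Its share of counts in the single most abundant gene was 1.015%, against 4.79% to 5.87% in the other 4. Counts of calls that moved by over 1.5 times without it are given with each result.

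Together the 38 genes held 0.715% of all gene counts (0.577% to 0.815% in single samples). Levels are in CPM, counts scaled to TMM library sizes. Compared per kilobase of transcript, the highest were Cox4i1 (687 CPM per kb, mean of 36 samples), Cox6a1 (558) and Cox8a (534) of complex IV and Atp5b (528), the catalytic beta subunit of complex V. The lowest was Sdhc of complex II, at 28.9 CPM per kb. Within complex II the anchor Sdhd followed at 53.3 CPM per kb, while the flavoprotein Sdha reached 127 and the iron-sulphur subunit Sdhb 99.6. Complex III ran from 77.9 CPM per kb for Uqcrb to 259.8 for Uqcrq, both small accessory subunits. Complex IV ran from 92.7 for Cox7b to the 687 of Cox4i1, and complex V from 90.7 for Atp5k, the e subunit, to the 528 of Atp5b. For 11 of the 38 genes, over 20% of the 50-base stretches of the transcript also occur in other genes. Among them are Uqcrb (43.4%), Cox5a (32.0%), Cox6c (21.1%), Cox7c (53.0%) and Atp5o (50.3%). The levels of these 11 depend on how reads with several matches were counted.

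The summed level of the 38 genes was 7635 ± 369 CPM in WT vehicle F (SD, n = 5) and 7566 ± 626 CPM in WT CP2 F (SD, n = 5). In KO F it was 7199 ± 453 CPM with vehicle (SD, n = 5) and 7631 ± 271 CPM with CP2 (SD, n = 5). All 4 M groups had lower mean sums than the matching F groups: 6540.4 ± 884 CPM in WT vehicle (SD, n = 3), 6369 ± 492 in WT CP2 (SD, n = 5), 6214 ± 198 in KO vehicle (SD, n = 3) and 7331 ± 572 in KO CP2 (SD, n = 5). No test of F against M levels was made. The 3 M groups with the lowest sums were also the 3 groups with the highest share of reads outside genes, above 10%. In KO CP2 M the share was 7.33% on average. The spread within WT vehicle M was the widest, with a sum of 5531 CPM in L303 against 6913 and 7177 CPM in L285 and L300.

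**Figure D1:**
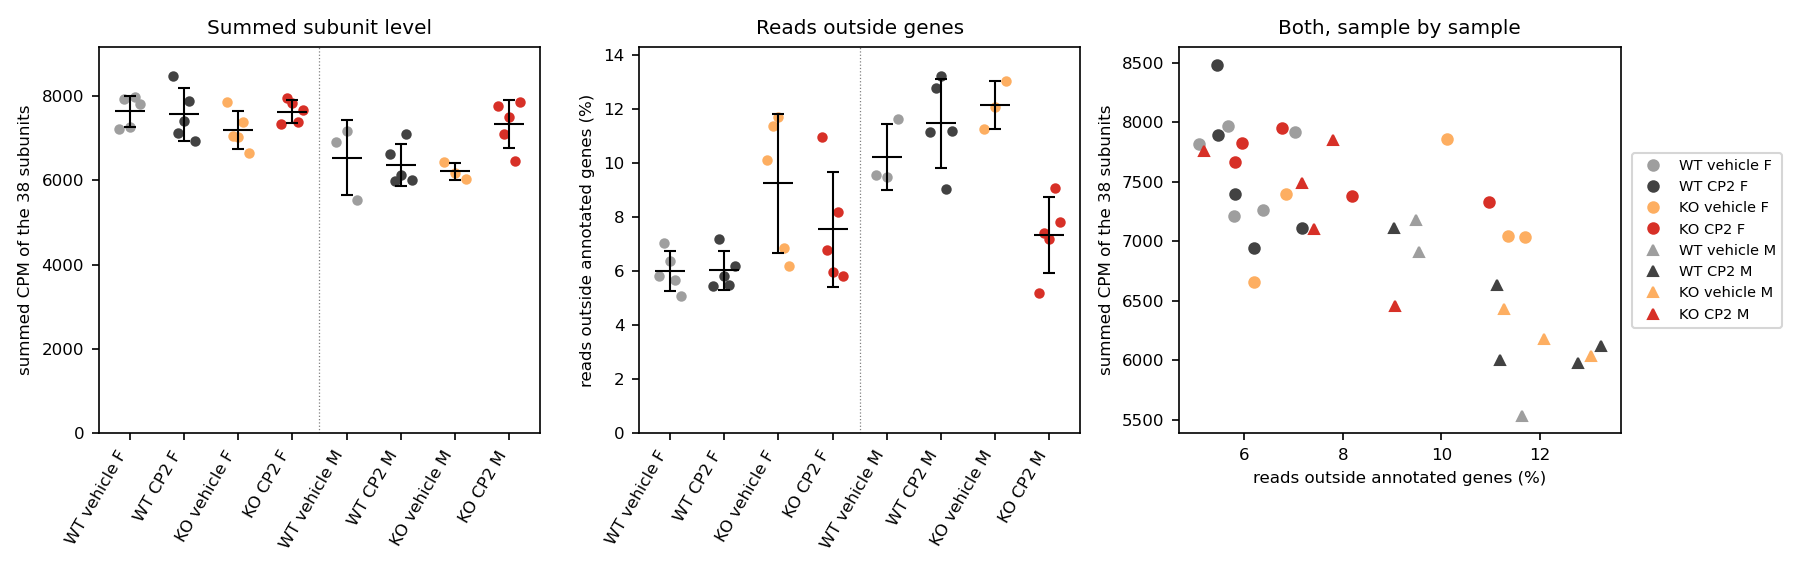
Left, summed CPM of the 38 subunits in each sample by group. Middle, percent of reads outside annotated genes. Right, one against the other; circles are F samples and triangles M samples. Black bars are means with SD. WT vehicle M L303 has the lowest sum, 5531 CPM.

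Part of these genes rose with CP2 in KO, and none was called in WT. Averaged over F and M, 12 of the 38 subunits (31.6%) were called higher with CP2 than with vehicle in KO and 0 were called lower, where 3.91% of all 25601 tested genes were called (532 higher and 470 lower). Calls are those with an adjusted p under 0.05 in edgeR's quasi-likelihood test with Benjamini-Hochberg adjustment over all tested genes. The called genes were Sdhc of complex II, Uqcrfs1 and Uqcrh of complex III, Cox4i1, Cox6a1, Cox6b1, Cox6c, Cox7a2 and Cox7b of complex IV, and Atp5h, Atp5j2 and Atp5l of complex V. All 38 log2 fold changes were above 0, with a median of 0.20 against 9.9e-05 over all tested genes. By complex the medians were 0.11 for II, 0.26 for III, 0.24 for IV and 0.17 for V, and complex IV had 6 of 11 subunits called. The largest estimates were those of the small subunits Atp5k (0.45, SE 0.159, edgeR adjusted p = 0.105) and Atp5e (0.41, SE 0.125, edgeR adjusted p = 0.0582), which were not called. The smallest were those of Atp5a1 and Uqcrc2, at 0.04 and 0.05.

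The count of 12 moved with single libraries and with the model. It was 5 without KO vehicle F L281, 5 without KO CP2 M L266, 24 without KO CP2 M L298, 5 without KO CP2 M L299, 7 without KO vehicle M L319 and 2 without KO vehicle M L322. Calls over all genes moved as well, from 1002 to 190 without L322 and to 1386 without L298. Without L291 alone, whose Xist level did not match its title, the subunit count was 12, and without L266 and L291 together 4 (526 of all genes). The count was 4 on gene count totals without TMM factors (1014 of all genes) and 4 with only the KO samples in the fit (159 of all genes). Adjusting for the outside-gene read share it was 0, as for all genes (0 called). With the number in the sample title as a covariate it was 0 of the subunits and 51 of all genes. In KO every CP2 sample had a lower title number than every vehicle sample of the same letter. In WT the numbers of CP2 and vehicle samples overlapped in both letters. In KO these samples thus cannot separate an effect of CP2 from a difference that follows the title number. Under the adjustment for the outside-gene share the median log2 fold change over the 38 subunits was 0.12.

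**Figure D2:**
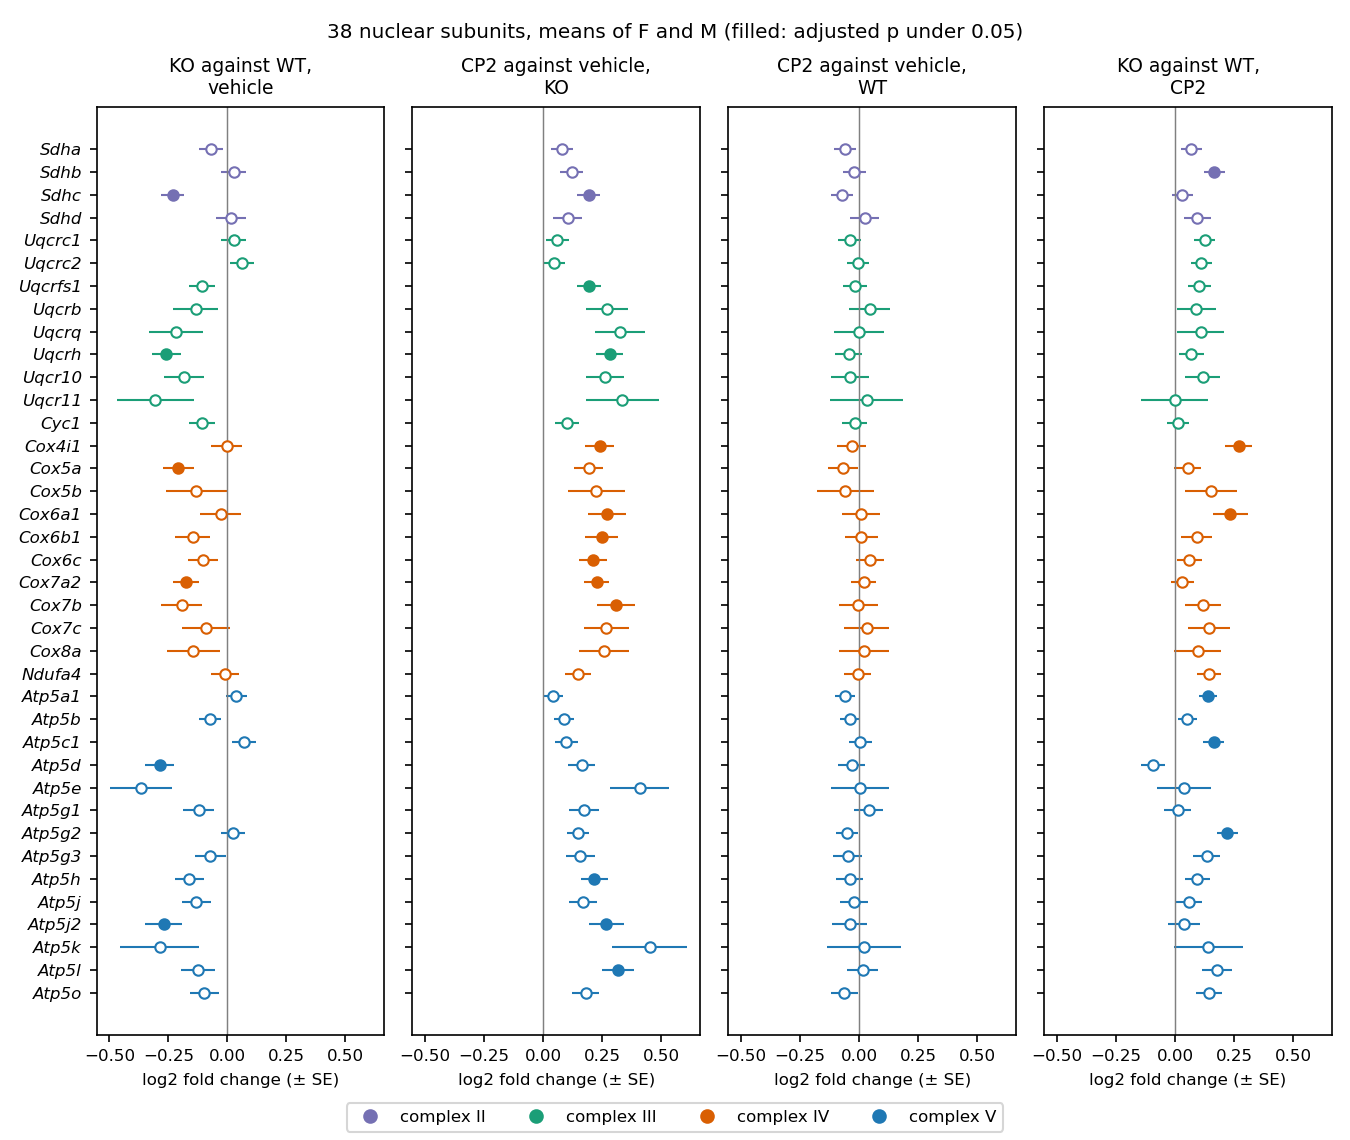
Log2 fold change (x axis, ± SE) of each of the 38 subunits in 4 comparisons averaged over F and M. Filled points have an adjusted p under 0.05. In KO all 38 points lie to the right of 0 with CP2, and in WT they lie between -0.07 and 0.05.

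The promoters of these genes are known for sites of NRF1, of the ETS factor GABP (NRF2) and of YY1. In the RefSeq promoter table (GRCm38.p6, 250 bases before to 50 after the annotated start), 33 promoters matched 30 of the 38 genes. Letters were searched on both strands: GCGCATGCG for NRF1, CCGGAAG for ETS and AAGATGGCG for YY1. The NRF1 letters were in 6 of 33 promoters (18.2%) against 1.75% of all 32851, those of ETS in 12 (36.4%) against 8.86%, and those of YY1 in 2 (6.06%) against 1.4%. Any of the 3 was in 15 promoters (45.5%) against 11.4%. Since the NRF1 letters nearly mirror themselves, one site can match on both strands. A match is a description of these letters and not of binding.

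The sequences of 8 of them are shown, 4 of genes called for CP2 in KO and 4 of genes not called there, to let the letters be seen in both, each from 95 bases before to 5 bases from the annotated start, 5′ to 3′ on the gene's strand, which is the minus strand in all 8. Capitals mark the matching letters, with CTTCCGG the ETS letters read on the other strand. Uqcrh, Cox6a1, Cox6b1 and Atp5h have ETS letters in this stretch and were called for CP2 in KO.
Uqcrh: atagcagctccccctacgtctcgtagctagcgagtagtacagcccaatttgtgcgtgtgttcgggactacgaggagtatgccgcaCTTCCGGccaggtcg
Cox6a1: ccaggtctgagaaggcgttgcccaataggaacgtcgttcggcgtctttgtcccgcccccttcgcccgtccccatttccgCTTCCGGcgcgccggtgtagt
Cox6b1: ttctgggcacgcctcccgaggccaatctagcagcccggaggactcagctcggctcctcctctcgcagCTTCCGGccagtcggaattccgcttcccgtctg
Atp5h: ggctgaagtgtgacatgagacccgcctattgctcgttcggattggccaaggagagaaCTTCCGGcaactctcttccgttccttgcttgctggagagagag
They lie at chr4:116075066-116075165, chr5:115348954-115349053, chr7:30626110-30626209 and chr11:115419915-115420014 of GRCm38.p6. In the same stretch, Uqcr11, Atp5k and Atp5g2 have NRF1 letters, Uqcr11 and Atp5j ETS letters and Atp5j those of YY1. None of these 4 was called for CP2 in KO averaged over F and M.
Uqcr11: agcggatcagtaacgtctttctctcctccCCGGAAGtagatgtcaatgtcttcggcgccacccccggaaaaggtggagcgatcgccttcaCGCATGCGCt
Atp5k: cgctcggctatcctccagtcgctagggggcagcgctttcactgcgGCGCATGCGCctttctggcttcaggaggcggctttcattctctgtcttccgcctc
Atp5g2: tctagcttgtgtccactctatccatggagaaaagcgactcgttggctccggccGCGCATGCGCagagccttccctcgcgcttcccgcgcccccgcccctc
Atp5j: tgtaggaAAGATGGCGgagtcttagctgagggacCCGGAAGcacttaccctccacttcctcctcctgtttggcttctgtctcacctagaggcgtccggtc
They lie at chr10:80406817-80406916, chr5:108434395-108434494, chr15:102671043-102671142 and chr16:84834972-84835071. Outside the stretch shown, the called Cox6a1 and Atp5l have NRF1 letters, the called Atp5j2 has YY1 letters and the uncalled Atp5k has ETS letters. No letters were found in the promoters of the called Cox7a2 and the uncalled Cox5b, among others. Genes with and without the letters were thus found both among the called and the other subunits.

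In complex II the succinate-oxidizing head is formed by Sdha and Sdhb, and Sdhc and Sdhd anchor it in the membrane. Sdhc had 104, 96.0, 99.5, 108 and 102 CPM in WT vehicle F and 91.6, 88.4, 82.9, 88.3 and 88.6 CPM in KO vehicle F, so that no sample of the groups overlapped. In KO CP2 F it had 94.8, 94.6, 87.8, 87.6 and 93.5 CPM, which overlapped with KO vehicle F, and in WT CP2 F 94.7, 93.4, 95.6, 105 and 90.4 CPM. In M the separation by treatment was complete: 80.6, 76.9 and 71.3 CPM in KO vehicle M against 94.9, 92.2, 101, 85.3 and 104 CPM in KO CP2 M. WT vehicle M had 94.6, 91.7 and 86.6 CPM and WT CP2 M 94.7, 80.4, 82.2, 98.9 and 81.5 CPM. Sdhc fell in KO against WT with vehicle (log2 fold change -0.23, SE 0.0505, edgeR adjusted p = 0.00352) and rose with CP2 in KO (log2 fold change 0.19, SE 0.0474, edgeR adjusted p = 0.0155), and in KO M the change was 0.32 (SE 0.0721, edgeR adjusted p = 0.00522). With CP2, its difference between KO and WT was 0.03 (SE 0.0436, edgeR adjusted p = 0.731).

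The other complex II genes had fewer calls. Sdha, at 381 ± 34.8 CPM in KO vehicle F (SD, n = 5) and 372 ± 17.1 CPM in KO CP2 F (SD, n = 5), was not called in any comparison averaged over F and M. Sdhb was called in 1 of them, higher in KO than in WT with CP2 (log2 fold change 0.17, SE 0.0442, edgeR adjusted p = 0.0101). It had 123, 136, 132, 115 and 129 CPM in KO CP2 F against 123, 101, 108, 115 and 117 in WT CP2 F, and 123, 118, 113, 109 and 118 CPM in KO CP2 M against 108, 99.4, 95.7, 109.5 and 107 in WT CP2 M. The groups overlapped in both letters. Sdhd was called in none of the averaged comparisons, with 0.10 (SE 0.0610) on the log2 scale for CP2 in KO.

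In complex III, Uqcrh is the acidic hinge protein that sits at the cytochrome c1 subunit, and Uqcrfs1 is the Rieske iron-sulphur protein that transfers electrons from ubiquinol. Uqcrh had 131, 142, 134, 142 and 134 CPM in WT vehicle F and 129, 125, 108, 108 and 106 CPM in KO vehicle F, with every KO sample below every WT sample. KO CP2 F had 130.3, 134, 116, 128 and 134 CPM and WT CP2 F 131, 127, 135, 144 and 122 CPM. In M, KO vehicle had 96.4, 99.9 and 88.4 CPM and KO CP2 136, 128, 132, 99.3 and 134 CPM, where L298 alone lay within the range of the vehicle samples. WT vehicle M had 122, 125 and 96.0 CPM and WT CP2 M 117, 112, 107, 119.6 and 102 CPM. Uqcrh fell in KO with vehicle (log2 fold change -0.26, SE 0.0620, edgeR adjusted p = 0.00840) and rose with CP2 in KO (log2 fold change 0.28, SE 0.0583, edgeR adjusted p = 0.00611), and it had the smallest adjusted p of the 38 genes for CP2 in KO averaged over F and M.

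Uqcrfs1 rose with CP2 in KO (log2 fold change 0.19, SE 0.0520, edgeR adjusted p = 0.0261), from 118 ± 6.94 to 131 ± 10.7 CPM in F (SD, n = 5 each) and from 106 ± 2.28 (SD, n = 3) to 125 ± 7.55 CPM in M (SD, n = 5). Its difference between KO and WT with vehicle was -0.11 (SE 0.0554, edgeR adjusted p = 0.255). Uqcr10 was called in M and not in F, with 0.46 (SE 0.123, edgeR adjusted p = 0.0215) for CP2 in KO M against 0.06 (SE 0.105) in KO F, and its difference between the letters did not pass the threshold. The core proteins Uqcrc1 and Uqcrc2, at 0.06 and 0.05 for CP2 in KO, and cytochrome c1 (Cyc1, 0.10) had the smallest estimates of the complex.

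Complex IV, cytochrome c oxidase, had the most genes called for CP2 in KO: 6 of 11, all higher. Cox7a2 had 97.8, 94.5 and 97.2 CPM in KO vehicle M and 128, 124, 122, 103 and 121 CPM in KO CP2 M, with no overlap. In F it had 111, 102, 106, 110.1 and 103 CPM in KO vehicle and 113, 127, 119.7, 117 and 111 in KO CP2, and the groups overlapped. WT samples had 119, 122, 112, 133 and 126 CPM (vehicle F), 142, 116, 120.2, 127 and 118 (CP2 F), 113, 118 and 90.0 (vehicle M) and 112, 107, 97.8, 117 and 106 (CP2 M). Cox7a2 was the first of the complex by adjusted p for CP2 in KO (log2 fold change 0.23, SE 0.0527, edgeR adjusted p = 0.0107) and was lower in KO than in WT with vehicle (log2 fold change -0.18, SE 0.0561, edgeR adjusted p = 0.0493).

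Cox4i1, the ubiquitous form of the subunit 4 that binds ATP, had a different order of groups. It did not differ by a called amount between KO and WT with vehicle (-0.0026, SE 0.0654) and was higher in KO than in WT with CP2 (log2 fold change 0.27, SE 0.0567, edgeR adjusted p = 0.00116). In M it had 447, 482 and 349 CPM in WT vehicle, 439.9, 398 and 403 in KO vehicle and 434, 360.5, 388, 479 and 376 in WT CP2. KO CP2 M stood above KO vehicle M, with 599, 534, 567, 479 and 615 CPM and no overlap, and its lowest sample lay below the highest of WT CP2 M. In F the samples ran from 515 to 629.5 CPM in KO vehicle, 541 to 606 in KO CP2, 499 to 572 in WT vehicle and 503 to 609.6 in WT CP2, and all 4 groups overlapped. For CP2 in KO the fold change of Cox4i1 was 0.43 (SE 0.0938, edgeR adjusted p = 0.00423) in M and 0.05 (SE 0.0801, edgeR adjusted p = 0.897) in F.

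Cox5a, which with Cox4i1 belongs to the first assembly steps of the enzyme, was lower in KO with vehicle (log2 fold change -0.21, SE 0.0661, edgeR adjusted p = 0.0490). It had 101, 97.6, 93.8, 99.4 and 106 CPM in WT vehicle F against 88.1, 82.5, 80.1, 92.0 and 82.2 in KO vehicle F, without overlap, and 93.6, 96.6 and 74.5 CPM in WT vehicle M against 83.7, 76.3 and 72.6 in KO vehicle M, with overlap. Cox6a1 rose with CP2 in KO (0.27) and was higher in KO than in WT with CP2 (0.23, SE 0.0740, edgeR adjusted p = 0.0342). The largest called estimate of the complex for CP2 in KO was that of Cox7b (log2 fold change 0.31, SE 0.0818, edgeR adjusted p = 0.0250), which went from 89.1 ± 9.95 to 103 ± 6.07 CPM in F (SD, n = 5 each) and from 72.1 ± 6.40 (SD, n = 3) to 95.5 ± 15.9 CPM in M (SD, n = 5). Ndufa4, once counted as a complex I subunit and now placed in complex IV, had the smallest estimate of the complex (0.15, SE 0.0555). It was called in KO against WT with CP2 in M (0.25, SE 0.0726, edgeR adjusted p = 0.0244).

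**Figure D3:**
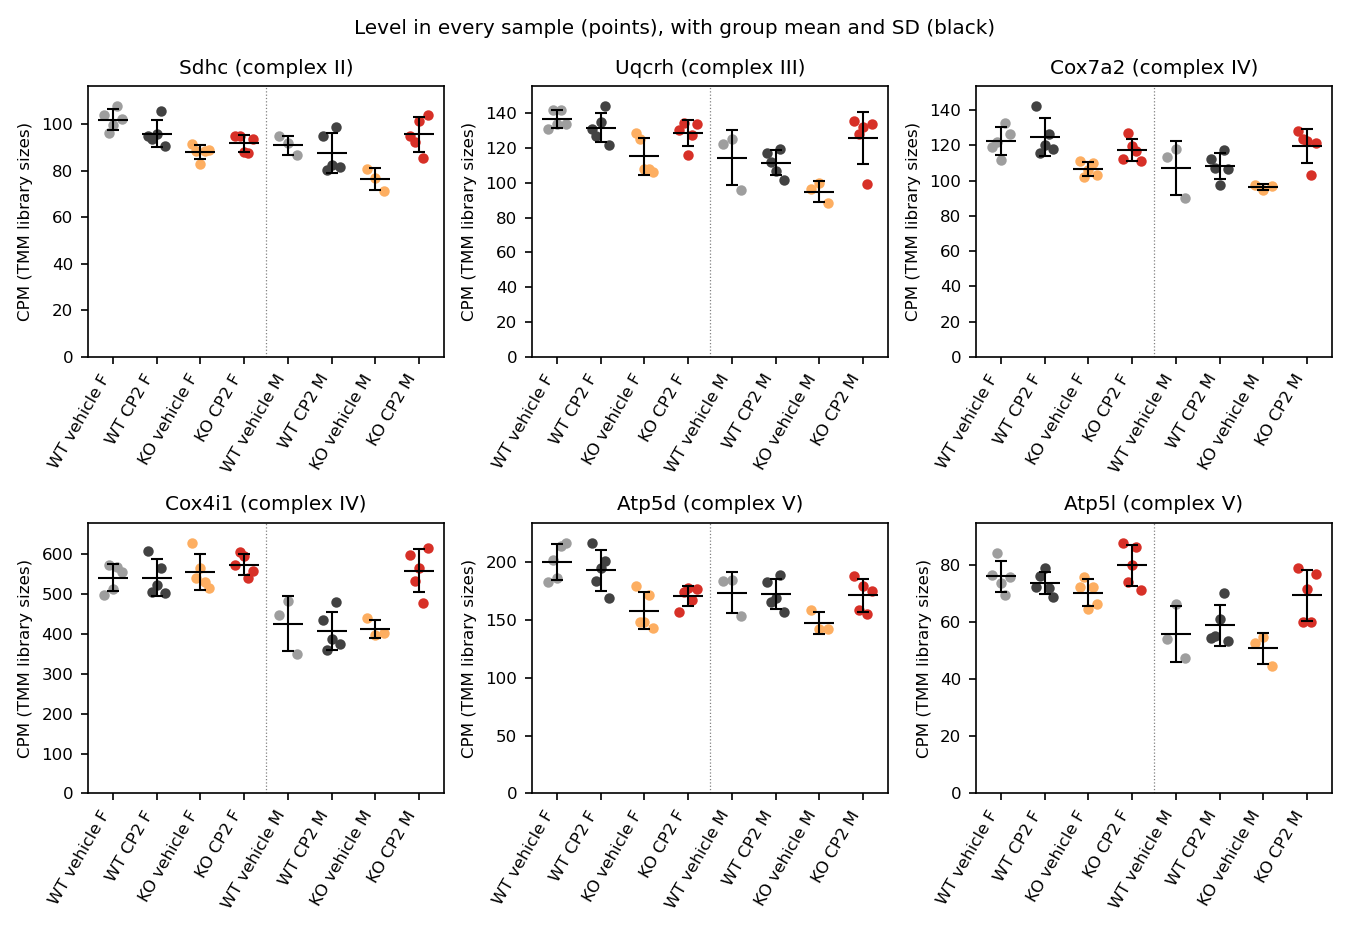
CPM in every sample (points) by group, with mean and SD in black, for the leading genes of each complex. The y axes start at 0. In KO vehicle M, Sdhc, Cox7a2 and Cox4i1 lie below every KO CP2 M sample, and in F the KO groups overlap.

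In complex V the F1 head is built from Atp5a1, Atp5b, Atp5c1, Atp5d and Atp5e (alpha to epsilon), and the remaining members form the peripheral stalk and the membrane part. Atp5d, the delta subunit of the central stalk, fell in KO with vehicle (log2 fold change -0.29, SE 0.0606, edgeR adjusted p = 0.00271). It had 182, 201.1, 186, 213 and 216.4 CPM in WT vehicle F against 179, 148, 148, 171 and 143 in KO vehicle F, without overlap, and 183, 184 and 153 CPM in WT vehicle M against 158, 142 and 142 in KO vehicle M, where L303 of WT lay below the highest KO sample. With CP2 its difference between KO and WT was -0.09 (SE 0.0524, edgeR adjusted p = 0.275), the lowest of the 38 genes in that comparison. Atp5a1, the alpha subunit, was not called with vehicle (0.04, SE 0.0446) and was higher in KO than in WT with CP2 (log2 fold change 0.14, SE 0.0386, edgeR adjusted p = 0.0127), as was the gamma subunit Atp5c1 (log2 fold change 0.16, SE 0.0447, edgeR adjusted p = 0.0127). The beta subunit Atp5b, at 1049 ± 35.8 CPM in WT vehicle F (SD, n = 5), was called in none of the comparisons averaged over F and M.

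Atp5l, the g subunit of the membrane part, had the second smallest adjusted p of all 38 genes for CP2 in KO (log2 fold change 0.32, SE 0.0675, edgeR adjusted p = 0.00653). It had 52.7, 54.8 and 44.7 CPM in KO vehicle M and 78.8, 60.2, 71.4, 59.9 and 76.7 in KO CP2 M, with no overlap, and 72.2, 75.9, 64.7, 72.2 and 66.2 CPM in KO vehicle F and 87.8, 74.0, 79.9, 86.1 and 71.2 in KO CP2 F, with overlap. Of the 50-base stretches of its transcript, 84.8% also occur in other genes, so its level depends on how reads with several matches were counted. Atp5j2, the f subunit, was both lower in KO with vehicle (log2 fold change -0.27, SE 0.0788, edgeR adjusted p = 0.0310) and higher in KO with CP2 than with vehicle (log2 fold change 0.27, SE 0.0740, edgeR adjusted p = 0.0306), and Atp5h, the d subunit of the stalk, rose with CP2 in KO (log2 fold change 0.22, SE 0.0575, edgeR adjusted p = 0.0241), with 50.5% of its 50-base stretches shared.

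The 3 genes of the c subunit, which forms the rotating ring, give the same mature protein from different precursors. Atp5g3 held 44.3% ± 1.58 (SD, n = 5) of their summed CPM per kb in KO CP2 F, Atp5g1 33.9% ± 1.18 and Atp5g2 21.7% ± 1.38. Of their 50-base stretches, 0% for Atp5g3, 66.0% for Atp5g1 and 100% for Atp5g2 also occur in other genes. The order of these shares thus depends on how reads with several matches were counted. Atp5g2 was called higher in KO than in WT with CP2 (log2 fold change 0.22, SE 0.0441, edgeR adjusted p = 0.000635), and had the smallest adjusted p of the 38 genes there. It had 57.1, 57.8, 56.7, 60.2 and 58.1 CPM in KO CP2 F against 53.8, 48.4, 48.0, 53.4 and 54.0 in WT CP2 F, without overlap, and 58.4, 52.1, 52.3, 51.3 and 60.5 CPM in KO CP2 M against 46.2, 44.5, 39.8, 51.4 and 45.2 in WT CP2 M, with overlap. All of its 50-base stretches (100%) occur in another annotated gene, so this call is uncertain. The log2 fold changes of Atp5g1 and Atp5g3 in the same comparison were 0.01 (SE 0.0570) and 0.13 (SE 0.0561), and neither was called.

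With vehicle, KO samples had lower levels of part of the subunits. Averaged over F and M, 6 of 38 (15.8%) were called lower in KO than in WT and 0 higher, where 6.67% of all tested genes were called (736 higher and 972 lower). These were Sdhc, Uqcrh, Cox5a, Cox7a2, Atp5d and Atp5j2. The median log2 fold change was -0.12 against 0.02 over all tested genes, and 31 of the 38 were below 0. All 11 complex IV estimates were below 0, from -0.21 for Cox5a to -0.0026 for Cox4i1. The largest, of Atp5e, the epsilon subunit of complex V, was not called (-0.37, SE 0.132, edgeR adjusted p = 0.0905). In F alone 3 were called lower, Sdhc, Uqcrh and Atp5d (4.96% of all tested genes were called), and in M alone 0 (0.516% of all tested genes, with 3 of 38 subunits below 0.05 before adjustment). In F, 8 of 38 subunits (21.1%) had every KO sample below every WT sample, as against 4.7% of all tested genes without overlap in either direction. In M that held for 1 subunit, Sdhc, while 20.9% of all tested genes did not overlap between the 3 and 3 samples.

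The averaged count of 6 with vehicle was 3 without KO vehicle F L281, 3 without WT vehicle F L296, 3 without KO vehicle M L322, 3 without WT vehicle M L285, 2 without WT vehicle M L300 and 12 without WT vehicle M L303. Adjusting for the outside-gene read share it was 0. Within that fit Sdhc had a log2 fold change of -0.18 (edgeR adjusted p = 0.111), Uqcrh -0.22 (edgeR adjusted p = 0.118) and Atp5d -0.19 (edgeR adjusted p = 0.14). The count of 3 in F was 1 without any single one of KO vehicle F L281 and L282, WT vehicle F L252, L278, L295 and L296, or WT vehicle M L300. In these fits 573 to 1080 of all genes were called, against 1270 in the main fit. The 0 in M became 1 without WT vehicle M L303 (152 of all genes, against 132).

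In WT, CP2 left these genes without a call. Averaged over F and M, 0 of 38 were called by edgeR (0% of all tested genes), 0 fell below 0.05 before adjustment, against 1031 of all 25601, and DESeq2 also called 0. The estimates lay between -0.07 (Sdhc) and 0.05 (Cox6c), with a median of -0.02 and standard errors of 0.0417 to 0.157. In F and in M alone 0 of 38 were called as well (0% of all tested genes in each), and before adjustment 0 fell below 0.05. The summed level of complex IV was 2399 ± 156 CPM in WT vehicle F and 2379.7 ± 301 CPM in WT CP2 F (SD, n = 5 each), and 1845 ± 366 (SD, n = 3) and 1850.2 ± 193 CPM (SD, n = 5) in M.

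The CP2 effect in KO minus that in WT was above 0 for all 38 subunits, with a median of 0.23 against -0.0048 over all tested genes. Of these, 2 of 38 were called (0.715% of all tested genes): Sdhc (log2 fold change 0.26, SE 0.0667, edgeR adjusted p = 0.0466) and Uqcrh (log2 fold change 0.33, SE 0.0819, edgeR adjusted p = 0.0436). Both calls were close to the threshold. In KO the title numbers separate CP2 from vehicle samples within each letter, and in WT they overlap. This difference in CP2 effect thus cannot be told apart from one that follows the title number. The count was 0 without any single one of KO CP2 F L216 and L234, KO vehicle F L281 and L282, WT CP2 F L228, L240, L257 and L311, WT vehicle F L252, L278, L295 and L296, KO CP2 M L266, L292 and L299, KO vehicle M L319 and L322, WT CP2 M L262, L263 and L289, and WT vehicle M L285 and L300. It was 1 without KO CP2 F L233, KO vehicle F L283, WT vehicle F L277, KO CP2 M L291 or KO vehicle M L310, and 11 without WT vehicle M L303. Calls over all genes went from 183 to 0 without KO vehicle M L322, WT vehicle M L285 or WT vehicle M L300, and to 435 without L303. With RLE size factors, with totals, with either covariate, and without L266 and L291 together the subunit count was 0. All-gene calls in these fits ran from 0 with the outside-gene share to 172 with RLE size factors.

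Between genotypes under CP2 the averaged estimates were mostly above 0. Averaged over F and M, 6 of 38 (15.8%) were called higher in KO than in WT and 0 lower, where 11.6% of all tested genes were called, so that the share was near the background. They were Sdhb, Cox4i1, Cox6a1, Atp5a1, Atp5c1 and Atp5g2, and 0 of them were among the 6 called with vehicle. Both lists are cut at a threshold, and their overlap was not tested or set against that over all genes. The median was 0.10 against 0.01 over all tested genes, and 36 of 38 were above 0. In M the median was 0.20 and 37 of 38 were above 0, whereas in F the median was -0.02 and 23 of 38 were below 0. The test of F minus M called 0 of 38 here (0.82% of all tested genes), and Atp5g2 was without overlap in F. Without WT CP2 M L267 the count was 10 (2964 of all genes, against 2972 in the main fit). Adjusting for the outside-gene read share 4 were called (2952 of all genes). Markers of other cell types were called in the same comparison. Gfap, an astrocyte marker that rises in reactive cells, was higher (1.28 on the log2 scale, 1 of 5 astrocyte markers), as were P2ry12 (0.40) and Csf1r (0.20) of 5 microglia markers, Mbp (0.29) of 5 oligodendrocyte markers and Wfs1 (0.51) of 5 hippocampal CA neuron markers. Summed astrocyte markers ran from 3584 to 5233 CPM in KO CP2 F and 4073 to 4587 in WT CP2 F, and from 4706 to 5681 in KO CP2 M and 3864 to 4675 in WT CP2 M. Their part in the result was not tested. The 2 genotype comparisons use different samples, and the comparisons of CP2 in KO share samples with both.

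By letter, in M, 9 of 38 were called higher in KO than in WT with CP2 (9.99% of all tested genes): Uqcr10, Cox4i1, Cox6a1, Ndufa4, Atp5a1, Atp5c1, Atp5g2, Atp5g3 and Atp5o, the last of which is the oligomycin sensitivity protein of the peripheral stalk. In F it was 0 of 38 (2% of all tested genes), with 3 below 0.05 before adjustment. The count of 9 was 3 without KO CP2 M L266, 5 without KO CP2 M L292, 15 without KO CP2 M L298, 3 without KO CP2 M L299, 2 without WT CP2 M L262, 2 without WT CP2 M L263 and 3 without WT CP2 M L289. Calls over all genes ran from 1465 (without L262) to 2603 (without L298) in these fits, against 2558 in the main fit. Without L266 and L291 together the subunit count was 2 (1278 of all genes), and 1 when adjusting for the outside-gene read share (862 of all genes).

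For CP2 in KO, 11 of 38 were called higher in M (5.1% of all tested genes) and 0 of 38 in F (0.0859% of all tested genes), where 5 fell below 0.05 before adjustment. The median was 0.31 in M and 0.12 in F, and 37 of 38 estimates in F were above 0. With the title number as a covariate the median was 0.24 in M and 0.00091 in F. In neither letter did the title numbers of KO CP2 and KO vehicle samples overlap. Adjusting for the outside-gene read share it was 0.17 in M and 0.055 in F. In M, 10 of 38 subunits (26.3%) had every CP2 sample above every vehicle sample, against 15.3% of all tested genes without overlap, and in F 1 did, Atp5g2, against 1.04%. The count of 11 in M was 4 without KO CP2 M L266, 5 without L292, 21 without L298, 5 without L299, 6 without KO vehicle M L310, 5 without L319 and 0 without L322. Calls over all genes ran from 225 (without L322) to 1755 (without L298) in these fits, against 1306 in the main fit. Without L266 and L291 together the subunit count was 3 (370 of all genes). Adjusting for the outside-gene read share the count was 0, as for all genes. The difference between F and M itself was tested: 0 of 38 were called for CP2 in KO (0.691% of all tested genes), 0 for KO against WT with vehicle (0.102%) and 0 for KO against WT with CP2 (0.82%). Before adjustment, 6, 0 and 11 fell below 0.05. DESeq2 also called 0 in each.

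Part of the spread between samples moved with the share of reads outside genes. In a fit of all 36 samples with the 8 groups, the estimated slope of the log2 level on that share within groups was below 0 for all 38 subunits. The median was -0.03 per percentage point, from -0.06 (Atp5e) to -0.0039, against 0.00021 over all tested genes. Of the 38, 3 were called, all lower: Uqcrfs1, Cox5a and Atp5c1, where 6.51% of all tested genes were called in either direction. The share called was thus near the background. The 38 slopes come from the same libraries and are not independent. The share differed between the groups compared, as given above for KO vehicle M and KO CP2 M, and its part in the CP2 result was not tested beyond the covariate fits above.

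Levels of other cell types' markers also moved with CP2 in KO. Among the oligodendrocyte markers, Mbp (0.39) and Cnp (0.42), which encode myelin proteins, rose averaged over F and M. The summed level of the list ran from 6681 to 10147 CPM in KO vehicle F, 8718 to 11352 in KO CP2 F, 6747 to 7813 in KO vehicle M and 6841 to 13106 in KO CP2 M. Of 5 microglia markers, 2 rose, Cx3cr1 (0.27) and P2ry12 (0.31), with sums of 159 to 236, 202 to 267.3, 190.3 to 227.8 and 219 to 269 CPM in the same order. None of the listed neuron and astrocyte markers was called in that comparison. In KO against WT with vehicle, averaged over F and M, the blood markers Hba-a1 (-1.90) and Hbb-bs (-1.97), 2 of 3, and the microglia marker Tmem119 (-0.34), 1 of 5, were lower, and the CA neuron marker Wfs1 (0.56), 1 of 5, was higher. In F alone the CA neuron markers Neurod6 (-0.77) and Spink8 (-1.39) were lower. Summed blood markers ran from 68.7 to 119.5 CPM in KO vehicle F, 79.0 to 352 in WT vehicle F, 36.5 to 80.8 in KO vehicle M and 106 to 592 in WT vehicle M, and CA neuron markers from 215 to 275, 227.7 to 266.6, 266.95 to 310.5 and 179 to 201.4 CPM in the same order. No defining marker of these lists was at 0 in a group. Their part in the subunit results was not tested.

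**Figure D4:**
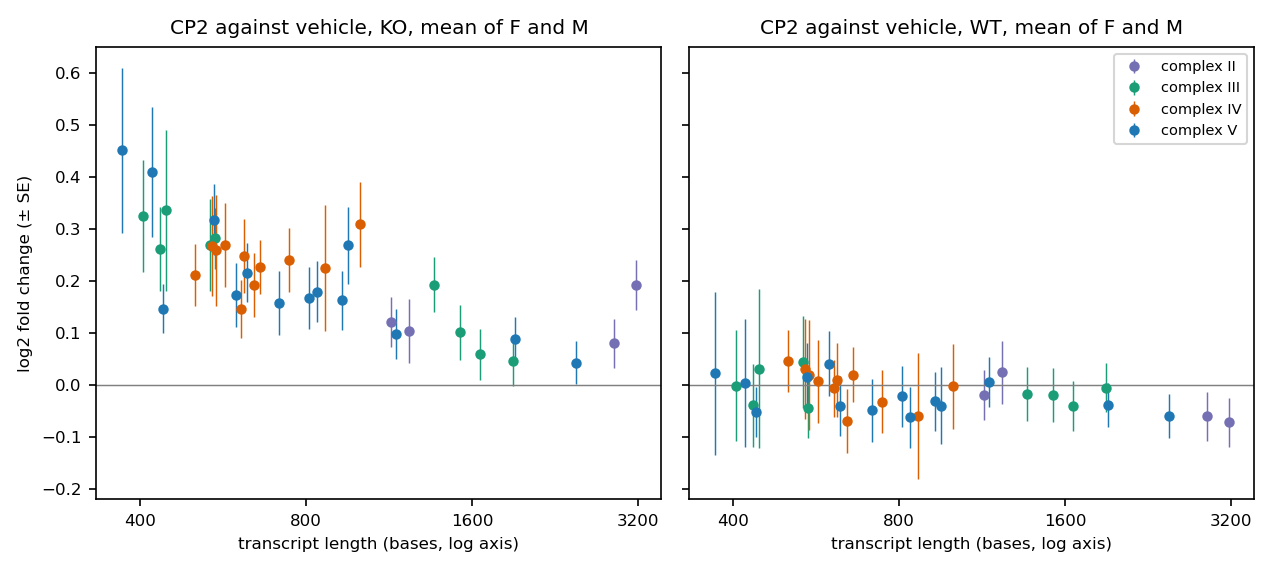
Log2 fold change of the 38 subunits (y axis, ± SE) for CP2 against vehicle in KO (left) and in WT (right) by transcript length (log axis). In KO the estimates of short transcripts are the largest; in WT all lie near 0.

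Shorter transcripts had larger CP2 estimates in KO. Lengths ran from 371 bases (Atp5k) to 3171 (Sdhc), with a median of 686. Across the 38 genes, log2 length and log2 fold change had a Pearson r of -0.73 and a Spearman rho of -0.74, over genes that share the same libraries and are not independent. Across all 24676 tested genes with a length the values were 0.07 and -0.01. The 19 shorter subunits had a median of 0.26 and the 19 longer ones 0.16. In WT the same r was -0.47 with medians of 0.01 and -0.03, and for KO against WT with vehicle it was 0.41, with medians of -0.15 and -0.07. Sdhc departed from this order: it was the longest and was called.

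The genes around the 38 subunits were read from lists of assembly factors, further subunits and isoforms, mitochondrial DNA subunits and regulators. Their counts are to be read against the shares of all tested genes called, which were 6.67% for KO against WT with vehicle, 3.91% for CP2 in KO and 11.6% for KO against WT with CP2. Of 32 tested assembly factors, 8 fell in KO with vehicle: Bcs1l, Coa3, Sdhaf2, Coa5, Cox14, Cox17, Uqcc1 and Tmem70, with a list median of -0.16. Bcs1l, the chaperone that inserts the Rieske protein into complex III, had the largest change of those named (log2 fold change -0.55, SE 0.106, edgeR adjusted p = 0.00117), at 15.7 ± 1.71 CPM in WT vehicle F and 10.2 ± 0.781 CPM in KO vehicle F (SD, n = 5 each). It was still called when adjusting for the outside-gene read share (-0.47, edgeR adjusted p = 0.0442), and was also lower in KO under CP2 (log2 fold change -0.31, SE 0.0915, edgeR adjusted p = 0.0229). Coa3, a factor for the first complex IV subunit made in mitochondria, had a log2 fold change of -0.32 (SE 0.0722, edgeR adjusted p = 0.00508), and the complex II factor Sdhaf2 one of -0.23 (SE 0.0541, edgeR adjusted p = 0.00823).

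With CP2 in KO, 4 assembly factors rose and 0 fell, with a list median of 0.16: Cox16 (log2 fold change 0.50, SE 0.115, edgeR adjusted p = 0.0102), Sdhaf2 (0.23), Coa5 (0.20) and Coa3 (0.24). Under CP2, KO had 2 factors higher than WT, Surf1 (0.24) and Sdhaf4 (0.37), and 2 lower, Bcs1l and Ttc19, a complex III factor. These 4 of 32 are near the 11.6% of all tested genes called. In WT, 0 of 32 were called for CP2.

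Of 13 tested further subunits and isoforms, 4 rose with CP2 in KO and 0 fell. They were the small ATP synthase proteins Atp5mj (log2 fold change 0.44, SE 0.104, edgeR adjusted p = 0.0145) and Atp5mk (log2 fold change 0.33, SE 0.0714, edgeR adjusted p = 0.00799), the ATPase inhibitor Atp5if1 (0.24) and Cox7a2l (log2 fold change 0.19, SE 0.0471, edgeR adjusted p = 0.0175), which joins complexes III and IV in supercomplexes. With vehicle, cytochrome c (Cycs, -0.29) and the muscle isoform Cox6a2 (-0.54) were lower in KO. The isoforms of other tissues were minor here: Cox4i2 made up a median of 0.262% of the summed CPM per kb of the Cox4i1 and Cox4i2 pair, Cox6a2 1.37% beside Cox6a1, Cox6b2 2.2% beside Cox6b1, Cox7a1 1.74% beside Cox7a2, Cox7b2 0.318% beside Cox7b and Cox8b 0.455% beside Cox8a.

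Of the 6 subunits of these complexes encoded in mitochondrial DNA, 1 rose with CP2 in KO, mt-Cytb of complex III (log2 fold change 0.25, SE 0.0633, edgeR adjusted p = 0.0200), and under CP2 2 were higher in KO than in WT, mt-Co1 of complex IV (log2 fold change 0.31, SE 0.0603, edgeR adjusted p = 0.000432) and mt-Cytb (0.20). With vehicle 0 of 6 were called between genotypes. Their median was 0.12 on average, but -0.08 in F, with 5 of 6 below 0, and 0.27 in M, with 6 of 6 above 0, where the nuclear subunits had -0.15 and -0.09. Over all samples mt-Co1 had 34430279 counts and mt-Cytb 14268510, but mt-Co2, mt-Co3, mt-Atp6 and mt-Atp8 had only 5894 to 37938. Medians and signs over the 6 thus rest mostly on the rows with far fewer counts, and the reason for their low counts was not tested. Libraries were selected for polyA, so the levels of all 6 depend on the tails of mitochondrial transcripts. Of 10 regulators, Esrra fell in KO with vehicle (log2 fold change -0.31, SE 0.0768, edgeR adjusted p = 0.0101) and with CP2 (-0.23), and Pprc1 with CP2 (log2 fold change -0.39, SE 0.0746, edgeR adjusted p = 0.000405). Both act as activators of nuclear genes for mitochondrial proteins. For CP2 in KO 0 of 10 were called, among them Nrf1 (-0.07, SE 0.0701), Gabpa (0.18, SE 0.0665) and Ppargc1a (0.01, SE 0.0743).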

How the data were processed

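PolyA-selected RNA of 36 mouse brain samples was sequenced from Illumina TruSeq libraries, per the labels' protocols. The authors deposited a table of raw read counts per Ensembl gene with 56980 gene rows and 5 htseq-count summary rows, which were left out of library sizes. STAR, HTSeq and the build GRCm39 are named in the submitters' processing notes; versions, annotation release and strandedness are not given in the sources used here, so overlapping and antisense genes are uncertain. Symbols came from GENCODE M21 and matched 52073 identifiers (91.4%). The members and lists were chosen with earlier results of these data known.

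Counts were tested with edgeR 4.0.16 in R 4.3.3: filterByExpr on the 8 groups, TMM library sizes, robust glmQLFit and glmQLFTest, with 1 coefficient per group over all 36 samples, 16 contrasts, and Benjamini-Hochberg adjustment over 25601 genes within each. F and M have equal weight in averages. Each SE is |log2 fold change| / √F, with F the test statistic. The functions were tested on simulated data. CPM uses TMM library sizes. Transcript length is that of the shortest best-supported principal transcript of GENCODE M21, and 50-base stretches were compared with all its transcripts. No pair of samples within a group agreed within sampling noise (66 pairs, mean chi-square per gene of 12.6 or more). Named genes were, per comparison averaged over F and M and for CP2 in KO within F and M, up to 3 per complex or list with the smallest adjusted p among those called; others were added for contrast after their values were seen. Alternatives were RLE size factors, totals without TMM, DESeq2 1.42.0, no filter, only the groups compared, covariates for the share of reads outside genes and for the title number, and each sample left out in turn; leaving out L266 and L291 together was chosen after seeing the data. The result of one marker gene is not reported here.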

Additional observations from a re-analysis of the deposited data

Results flagged for a closer look

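Sample L298 of KO CP2 M stood below the other 4 samples of its group in 3 of the values checked for a lone sample. Uqcrh was 99.3 CPM there against 128 CPM in the nearest sample, Cox7a2 was 103 CPM against 121 CPM, and the summed complex II level was 609 CPM against 660.5 CPM. L298 also had the highest share of reads outside genes in its group, at 9.06%. In KO vehicle F, Atp5g2 was 47.5 CPM in L281, against 53.8 CPM in the nearest sample. Of 90 group values checked, 4 stood apart in this way, and chance alone gives about 1 in 20.

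In the main fit, the test of the difference in CP2 effect between genotypes called 2 subunits: Sdhc (0.26 on the log2 scale, SE 0.0667, edgeR adjusted p = 0.0466) and Uqcrh (0.33, SE 0.0819, edgeR adjusted p = 0.0436). Of all tested genes 0.715% were called. The count of 2 moved in 28 of the 36 fits with 1 sample left out. Title numbers separate CP2 from vehicle samples in KO and not in WT, so the difference cannot be told apart from one that follows the number.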

How the results depend on the processing

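The numbers of subunits called are given for the settings that moved them by more than 1.5 times. Adjusting for the outside-gene read share, 0 were called for KO against WT with vehicle averaged over F and M and 0 in F alone, 0 for CP2 in KO averaged and 0 in M, 0 for the interaction, and 1 for KO against WT with CP2 in M. With the title number as a covariate there were 0 for CP2 in KO averaged, 4 in KO M and 0 for the interaction. That covariate gave 5 for KO against WT with vehicle in F. Title numbers did not overlap between CP2 and vehicle within either letter in KO, so that fit cannot separate CP2 from the number there. On totals without TMM there were 4 for CP2 in KO averaged, 6 in KO M, 0 for the interaction, 1 for KO against WT with vehicle in F and 5 with CP2 in M. Without L266 and L291 together there were 4, 3, 0, 1 and 2 in the same order. With only the groups compared there were 4 for CP2 in KO averaged. RLE size factors gave 0 for the interaction and 1 for KO against WT with vehicle in F, and no filter gave 1 and 1. DESeq2 moved none of the 16 counts by that much.

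With 1 sample left out at a time, counts ran from 2 to 12 for KO against WT with vehicle averaged, 5 to 10 with CP2 averaged, 2 to 24 for CP2 in KO averaged, 0 to 11 for the interaction, 1 to 4 for KO against WT with vehicle in F, 0 to 1 in M, 2 to 15 with CP2 in M and 0 to 21 for CP2 in KO M. For F minus M they ran from 0 to 1 for CP2 in KO (1 without L298) and from 0 to 2 for KO against WT with CP2 (2 without L298, 1 without L267). The other 6 counts were 0 throughout. For several of these comparisons the calls over all tested genes moved as well, as given above. Leaving out 1 sample changed the sign of no named gene; of 54 named values, 40 were no longer past the threshold when adjusting for the outside-gene share and 27 with the title number. The cause was not tested. All 40 summed levels of the complexes by group moved by less than 1 SD on gene count totals. No paired analysis was possible because no sample number is shared between groups. Every subunit had 836 counts or more in every sample, and 2 of the M groups had 3 samples.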
